A study of Mus musculus with 3 samples.

Results

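Metallothioneins and zinc transporters were followed in primary mouse hepatocytes given tauroursodeoxycholic acid (TUDCA), a bile acid conjugated to taurine, or the solvent DMSO. Members were taken by gene symbol, and all 8 of them (Mt1, Mt2, Mtf1, Slc30a1, Slc30a10, Slc39a4, Slc39a8 and Slc39a14) were found among the 37620 genes in the tables. Cells came from C57BL/6 mice at passage 1 and were grown on gelatin in medium with serum and insulin, which both groups shared. The TUDCA group had 2 libraries, labelled 100 mM for 24 h, and the DMSO group had 1 library with no time or dose label, so time in culture and TUDCA cannot be told apart. The design text speaks of 2 independent experiments without saying which libraries belong to which, so it is not known whether the DMSO library shares an experiment with either TUDCA library. The dose is given as labelled, and an error of its unit is possible. The labels used here state neither the age and number of the mice nor whether animals were pooled. The p-values rest only on the spread between the 2 TUDCA libraries, pooled over genes, which may be technical.

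Metallothioneins are small cysteine-rich proteins of the cytosol that bind zinc, copper and cadmium. Zinc that is not bound activates the transcription factor MTF1, which binds metal response elements in the promoters of the metallothionein genes and of the zinc exporter gene Slc30a1. Transporters of the SLC30 family carry zinc out of the cytosol and those of the SLC39 (ZIP) family carry it in. In liver, metallothioneins and the importer encoded by Slc39a14 are known to be induced by inflammatory cytokines and metallothioneins also by glucocorticoids.

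Levels are in RPKM, reads scaled by library size and gene length. The libraries rested on 9757547 and 10575699 reads for TUDCA and 10774289 reads for DMSO. The labelled cell type carried its markers, with 8 hepatocyte genes summing to 12802 and 11110 RPKM with TUDCA and to 9841 RPKM with DMSO. Most of this was Alb, at 7177 and 6111 RPKM with TUDCA and 5771 RPKM with DMSO. The lowest of the 8 were Cps1 (5.79 and 6.08 RPKM with TUDCA, 2.62 RPKM with DMSO) and Tat (8.50 and 9.23 RPKM with TUDCA, 6.81 RPKM with DMSO). Of the 8 hepatocyte genes, 3 were called higher with TUDCA by limma (test described below), against 1.77% of all genes tested. Genes of stellate cells summed to 5.33 to 7.09 RPKM and those of liver endothelium to 1.90 to 3.12 RPKM over all libraries. Macrophage genes summed to 178 to 196 RPKM, most of it Cd68. Cholangiocyte genes summed to 804 and 627 RPKM with TUDCA and 419 RPKM with DMSO, most of it Spp1, which was called higher with TUDCA. Keratinocyte genes summed to 5611 and 5646 RPKM with TUDCA and 8916 RPKM with DMSO, nearly all of it Sprr1a, and Krt14 was at 0 in all 3 libraries. Of 4 keratinocyte genes tested, 3 were called lower with TUDCA (Krt5, Lor and Sprr1a), against 0.876% of all genes tested. Hepatocyte and cholangiocyte sums were thus highest in TUDCA replicate 1, and their part in the results below was not tested. In bulk RNA, fewer cells of a type and less RNA per cell cannot be told apart.

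The promoter windows of Mt1, Mt2 and Slc30a1 are shown because MTF1 is known to act through these promoters, with matches to the core of the metal response element in capitals. Windows run from 250 bases before to 50 bases after the gene start in RefSeq (GRCm38.p6), which held windows for 6 of the 8 members. The letters searched were TGCACNC and TGCGCNC, on both strands, and overlapping matches were counted apart.
Mt1, chr8:94178839-94179138, plus strand: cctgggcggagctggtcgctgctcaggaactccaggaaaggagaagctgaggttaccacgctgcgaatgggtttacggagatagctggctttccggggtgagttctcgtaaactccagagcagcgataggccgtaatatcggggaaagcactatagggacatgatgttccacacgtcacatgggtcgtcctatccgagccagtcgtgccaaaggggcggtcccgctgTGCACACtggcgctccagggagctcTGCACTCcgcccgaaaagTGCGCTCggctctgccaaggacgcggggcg
Mt2, chr8:94172368-94172667, plus strand: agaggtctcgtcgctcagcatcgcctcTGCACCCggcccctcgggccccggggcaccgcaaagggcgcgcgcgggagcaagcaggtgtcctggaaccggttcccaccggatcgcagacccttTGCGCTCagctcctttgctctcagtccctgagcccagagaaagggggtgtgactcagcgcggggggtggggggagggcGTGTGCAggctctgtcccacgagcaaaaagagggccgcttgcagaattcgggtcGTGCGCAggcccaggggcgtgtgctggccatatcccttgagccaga
Slc30a1, chr1:191906531-191906830, plus strand: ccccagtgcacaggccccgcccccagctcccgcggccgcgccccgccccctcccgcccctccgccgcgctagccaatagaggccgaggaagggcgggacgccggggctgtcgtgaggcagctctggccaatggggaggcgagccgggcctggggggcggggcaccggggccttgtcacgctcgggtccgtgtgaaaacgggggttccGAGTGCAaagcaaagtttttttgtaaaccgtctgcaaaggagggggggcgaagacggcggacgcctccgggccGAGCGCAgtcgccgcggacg

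The Mt1 window held 3 matches, the Mt2 window 4 and the Slc30a1 window 2. Of all 32851 windows of the same length, 25.7% held at least 1 match, 7.11% at least 2, 1.97% at least 3 and 0.52% at least 4. In Mt1 the matches began at positions -23, 2 and 20 relative to the RefSeq start, all on the plus strand (first base of each match, with the start as 0), and in Mt2 at -223, -128, -50 and 4. Slc30a1 had its matches at -43 and 30, both on the minus strand. The Slc30a10 window held 3 matches, a pair of which overlap, the Mtf1 window held none, and of the windows of Slc39a8 one held 1 match and the other none. The windows of Mt1 and Mt2 begin 6471 bases apart, so both genes lie side by side on chromosome 8 on the same strand. GENCODE M21 lists other Mt1 transcripts that begin 122 and 152 bases after the RefSeq start, so the window ends before those starts. Likewise, 1 Mt2 transcript begins 242 bases and 1 Slc30a1 transcript 475 bases after the RefSeq start, outside the windows shown. The other Mt2 transcript listed there begins 46 bases after the RefSeq start. The matches counted here thus cover the surroundings of the RefSeq starts only. A match says only that these letters are present and does not show that MTF1 binds there.

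Mt1 and Mt2 were by far the most abundant members and stood highest in TUDCA replicate 1, while TUDCA replicate 2 lay much closer to DMSO. Mt1 (ENSMUSG00000031765) had 2139 and 1149 RPKM in TUDCA replicates 1 and 2, against 1051 RPKM in DMSO. Its TUDCA libraries were 2.04 and 1.09 times the DMSO library, so both were higher, but replicate 2 by little. Mt2 (ENSMUSG00000031762) had 1266 and 718 RPKM in TUDCA replicates 1 and 2, against 565 RPKM in DMSO. These were 2.24 and 1.27 times DMSO, again with TUDCA replicate 1 well above both other libraries. By level, Mt1 ranked 30th and 79th of all genes with TUDCA and 89th with DMSO. Mt1 and Mt2 together took 0.196% and 0.107% of the reads of the TUDCA libraries and 0.093% of those of the DMSO library. These shares rest on the smallest whole numbers of reads that fit the values, so the true shares may be larger. The ratio of Mt1 to Mt2 in RPKM was 1.69 and 1.60 with TUDCA and 1.86 with DMSO, so the Mt1 share of the pair was a little larger in DMSO.

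**Figure D1:**
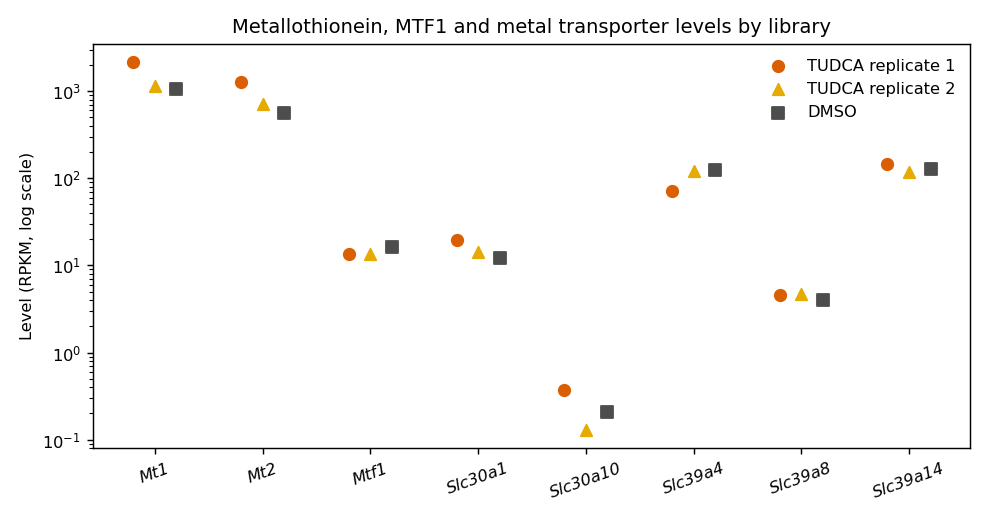
Level of each member in RPKM on a log axis, 1 point per library (circles TUDCA replicate 1, triangles TUDCA replicate 2, squares DMSO). Mt1 and Mt2 lie between 565 and 2139 RPKM, and Slc30a10 lies at or below 0.369 RPKM.

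Only Mt2 among the members passed the test. The test was limma on log2(RPKM + 1) over the 11300 genes that averaged 1 RPKM or more, at an adjusted p of 0.05, and fold changes of low genes are understated on this scale. Mt2 averaged 992 ± 387 RPKM with TUDCA (SD, n = 2) and 565 RPKM with DMSO (log2 fold change 0.75 ± 0.20 SE, limma adjusted p = 0.00685). Mt1 averaged 1644 ± 700 RPKM with TUDCA (SD, n = 2) and 1051 RPKM with DMSO and did not pass (log2 fold change 0.58 ± 0.20 SE, limma adjusted p = 0.0954, and 0.00609 to 1.00 over the alternatives). Of the 7 members tested, 1 was called higher and none lower, against 1.77% of all genes called higher, 0.876% called lower and 2.65% called in either direction. That Mt2 passed and Mt1 did not is no test of a difference between them, which was not tested. Limma gave every gene the common spread at its level, an SD of 0.16 for Mt1 and Mt2, while their own TUDCA libraries had SDs of 0.63 and 0.58 on the log2 scale. The same held for Slc39a4, with an own SD of 0.53 beside a common SD of 0.17. The SEs and p-values of these 3 genes leave out this wider spread. They are too small if that spread, measured by 2 libraries only, holds. With TUDCA replicate 1 left out, Mt2 and Mt1 had log2 fold changes of 0.35 and 0.13, and with TUDCA replicate 2 left out 1.16 and 1.02, with no test possible. The call of Mt2 was lost with no filter on low values, where limma used more of each gene's own spread (adjusted p = 0.712), with median centring (adjusted p = 0.168) and without the variance trend (adjusted p = 0.161), and when tested against a fold change of 1.5. After a correction for gene length Mt1 was called too (adjusted p = 0.00609).

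By size alone, a log2 difference from DMSO of 1 or more in both TUDCA libraries, alike in sign, was reached by no member, while 0.77% of all genes reached it upward and 0.283% downward. In TUDCA replicate 1 alone, Mt1 and Mt2 exceeded it, with log2 differences of 1.02 and 1.16, as did 1.9% of all genes. In TUDCA replicate 2 no member did, against 1.09% of all genes upward. Both TUDCA libraries were set against the same DMSO library, so their differences are not independent of each other.

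**Figure D2:**
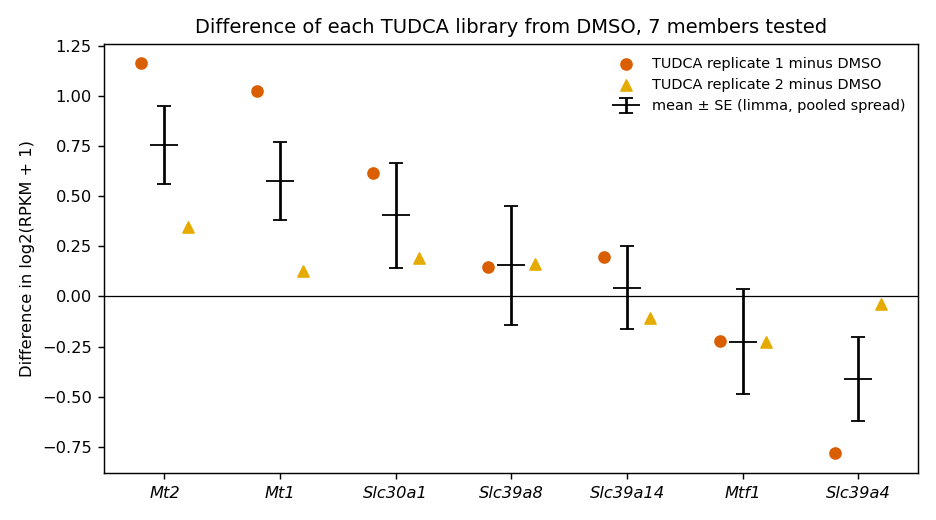
Difference from DMSO in log2(RPKM + 1) for the 7 members tested, as 1 point for each TUDCA library (circles replicate 1, triangles replicate 2), with the mean and its limma SE as bars. Mt2 and Mt1 in TUDCA replicate 1 lie above 1, and Slc39a4 is low in that library only, at -0.78.

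The TUDCA libraries differed from each other more for Mt1, Mt2 and Slc39a4 than for most genes. The gap between TUDCA replicates 1 and 2 was 0.90 for Mt1, 0.82 for Mt2 and 0.74 for Slc39a4 on the log2(RPKM + 1) scale. The median gap over the 11300 genes was 0.20. Gaps as large as those of Mt1, Mt2 and Slc39a4 were seen in 1.03%, 1.496% and 2.14% of these genes. Of the 1257 genes that averaged 100 RPKM or more, 5 had a gap as large as Mt1, 8 as large as Mt2 and 11 as large as Slc39a4, each count including the gene itself. With 1 library each, these gaps have no test.

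**Figure D3:**
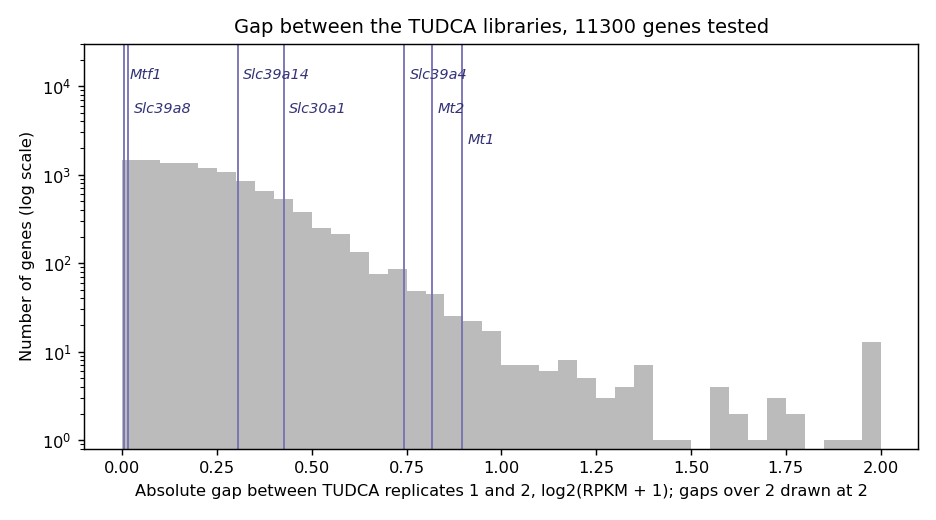
Number of genes (log axis) by the absolute gap between the TUDCA libraries in log2(RPKM + 1), over 11300 genes, with the 7 members tested as vertical lines. Mt1, Mt2 and Slc39a4 lie between 0.74 and 0.90, in the sparse right tail, and Mtf1 and Slc39a8 lie at the left edge.

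Mtf1 (ENSMUSG00000028890), the gene of the zinc-sensing transcription factor, was expressed at a low and even level. It had 13.7 and 13.6 RPKM in the TUDCA libraries, against 16.1 RPKM in DMSO, so both TUDCA libraries lay slightly below DMSO. It did not pass the test (log2 fold change -0.23 ± 0.26 SE, limma adjusted p = 0.884).

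The exporter gene Slc30a1 (ENSMUSG00000037434), whose protein ZnT1 moves zinc out across the plasma membrane, had 19.3 and 14.1 RPKM in TUDCA replicates 1 and 2, against 12.3 RPKM in DMSO. Like Mt1 and Mt2 it was highest in TUDCA replicate 1, at 1.58 times DMSO, with TUDCA replicate 2 at 1.15 times. The difference did not pass (log2 fold change 0.41 ± 0.26 SE, limma adjusted p = 0.656). Slc30a10, which encodes a family member known in humans and mice mainly as a manganese exporter, was near the detection limit with 0.369 and 0.130 RPKM with TUDCA and 0.207 RPKM with DMSO. These levels rested on 21 and 8 reads with TUDCA and 13 reads with DMSO, as the smallest whole numbers that fit the values. The exact Poisson 95% intervals, which cover counting error only, were 0.228 to 0.564 and 0.056 to 0.255 RPKM with TUDCA and 0.110 to 0.354 RPKM with DMSO. The intervals overlap, those of the TUDCA libraries only just, and overlap is not a test of a difference. Slc30a10 was the only member below the filter of 1 RPKM and was not tested at that filter.

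Of the importer genes, Slc39a14 and Slc39a4 were expressed far above Slc39a8. Slc39a14 (ENSMUSG00000022094), whose protein ZIP14 takes up zinc, manganese and iron in hepatocytes, had 147 and 119 RPKM with TUDCA, against 128 RPKM in DMSO. The TUDCA libraries thus lay on either side of DMSO (log2 fold change 0.04 ± 0.21 SE, limma adjusted p = 0.987), and the sign of the fold change turned with median centring (-0.032). Slc39a4 (ENSMUSG00000063354), whose protein ZIP4 is best known for zinc uptake in the intestine, had 71.7 and 121 RPKM with TUDCA, against 124 RPKM in DMSO. TUDCA replicate 1 was low, at 0.577 of DMSO, and TUDCA replicate 2 was close to DMSO, at 0.973 (log2 fold change -0.41 ± 0.21 SE, limma adjusted p = 0.468). Slc39a4 was the one member whose lowest library was that in which Mt1 and Mt2 were highest. Slc39a8 (ENSMUSG00000053897), whose protein ZIP8 takes up zinc and manganese, had 4.58 and 4.64 RPKM with TUDCA and 4.04 RPKM with DMSO (log2 fold change 0.16 ± 0.30 SE, limma adjusted p = 0.947).

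In all 3 libraries the order of levels began with Mt1 and Mt2 and ended with Slc39a8 and Slc30a10. Slc39a14 stood above Slc39a4 in TUDCA replicate 1 and DMSO and below it in TUDCA replicate 2. Mtf1 stood below Slc30a1 in both TUDCA libraries and above it in DMSO. Over the 7 members tested, the median log2 fold change was 0.16, with 0.20 for TUDCA replicate 1 and 0.13 for replicate 2, and that of all genes was 0.04, with 0.06 and 0.02.

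The genes whose pair of differences from DMSO lay nearest to that of Mt2 (1.16 and 0.35), by Euclidean distance over the 2 TUDCA libraries, were Sh3bgrl, Smc4 and Gm13988. Sh3bgrl, which encodes a small thioredoxin-like protein, had differences of 1.09 and 0.36 at a distance of 0.07, and Smc4, a condensin subunit, had 1.09 and 0.37. Gm13988 had differences of 1.25 and 0.33. None of these 3 passed the limma test (adjusted p = 0.0939, 0.183 and 0.248).

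Among the other zinc transporter genes, the importer Slc39a6 was lower with TUDCA and no exporter was called. Slc39a6, whose protein ZIP6 belongs to the plasma membrane importers, had 53.3 and 53.0 RPKM in the TUDCA libraries, against 90.0 RPKM in DMSO, with TUDCA replicates almost equal (log2 fold change -0.75 ± 0.22 SE, limma adjusted p = 0.0303). This call was lost with no filter, quantile normalization, no trend and the test against a fold change of 1.5 (adjusted p = 0.502, 0.105, 0.168 and 1.00). Its close relative Slc39a10, which MTF1 is known to repress in mouse, had 3.62 and 4.01 RPKM with TUDCA and 7.48 RPKM with DMSO. That was 0.484 and 0.537 of DMSO, a lower ratio than for Slc39a6, but at this low level it did not pass (log2 fold change -0.82 ± 0.30 SE, limma adjusted p = 0.141). Slc39a1, the most abundant other importer, had 159 and 178 RPKM with TUDCA and 209 RPKM with DMSO and did not pass (limma adjusted p = 0.668). Of the 11 other SLC39 genes 8 were tested, of which 1 was called lower, none higher and 7 not called, with a median log2 fold change of -0.10. Over all genes tested 0.876% were called lower, and the median was 0.04.

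Of the 8 other SLC30 genes 5 were tested and none was called, against 2.65% of all genes called in either direction. Their median log2 fold change was 0.04, as over all genes. Slc30a5, the highest of them on average, had 15.7 and 11.6 RPKM with TUDCA and 12.5 RPKM with DMSO. Slc30a9 had 15.002 and 10.7 RPKM with TUDCA and 10.3 RPKM with DMSO, and Slc30a4 had 13.5 and 7.80 RPKM with TUDCA and 11.6 RPKM with DMSO. Neither passed (limma adjusted p = 0.845 and 0.937). Of the remaining metallothionein genes, Mt3 was listed at 0 in all libraries and Mt4 at 0.262 RPKM in TUDCA replicate 1 and at 0 in both others.

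Among carriers of other metals and copper proteins, Steap4 and Cp were higher with TUDCA. Steap4, a metalloreductase of iron and copper, had 206 and 138 RPKM with TUDCA and 48.9 RPKM with DMSO, so both TUDCA libraries were well above it (log2 fold change 1.77 ± 0.21 SE, limma adjusted p = 2.9e-14). Cp, which encodes the plasma copper protein ceruloplasmin, had 910 and 757 RPKM with TUDCA and 399 RPKM with DMSO (log2 fold change 1.05 ± 0.20 SE, limma adjusted p = 1.3e-05). The iron exporter Slc40a1 had 27.1 RPKM in each TUDCA library and 17.4 RPKM in DMSO and did not pass (limma adjusted p = 0.228). Of 9 metal carriers tested 1 was called higher and 8 were not called, with a median log2 fold change of 0.14. Of 7 copper chaperones and cuproproteins tested 1 was called higher and 6 were not, with a median of 0.05. Beside these lists, 1.77% of all genes tested were called higher, and the median of all genes was 0.04. Cox17, a copper chaperone that serves cytochrome oxidase, had 45.4 and 50.8 RPKM with TUDCA and 54.3 RPKM with DMSO. Sod1, the copper-zinc superoxide dismutase and the highest of that list on average, had 770 and 843 RPKM with TUDCA and 832 RPKM with DMSO.

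Genes reported to depend on MTF1 were represented by 5 genes, of which Hamp was called higher and 4 were not called, with a median log2 fold change of 0.10. Hamp, the hepcidin gene, had 7.72 and 3.84 times its DMSO level in TUDCA replicates 1 and 2, and like Mt1 and Mt2 it was highest in TUDCA replicate 1 (log2 fold change 2.44 ± 0.20 SE, limma adjusted p = 7.7e-32). The TUDCA libraries of Hamp and Steap4 had own SDs of 0.71 and 0.41 on the log2 scale, beside common SDs of 0.16 and 0.17. The SEs and p-values of these genes leave out this wider spread as well, and are too small if it holds. Gclc, the catalytic subunit of glutamate-cysteine ligase, had 210 and 165 RPKM with TUDCA and 149 RPKM with DMSO and did not pass (limma adjusted p = 0.645). Of 8 genes that carry signals to metallothionein promoters, Il1r1 and Nfe2l2 were called higher and 6 were not called, with a median log2 fold change of 0.20. Beside both lists, 1.77% of all genes tested were called higher, and the median of all genes was 0.04. Il1r1, the interleukin-1 receptor, had 15.9 and 13.9 RPKM with TUDCA and 7.53 RPKM with DMSO (log2 fold change 0.90 ± 0.27 SE, limma adjusted p = 0.0384). Nfe2l2, which encodes NRF2, had 140 and 149 RPKM with TUDCA and 80.4 RPKM with DMSO (limma adjusted p = 0.00423). Median centring ended both calls (adjusted p = 0.0729 for Il1r1 and 0.0773 for Nfe2l2), as did the fit without the variance trend (0.0503 and 0.0866) and the test against a fold change of 1.5, and quantile normalization ended that of Il1r1 (0.125). With no filter on low values limma called none of Steap4, Cp, Hamp, Il1r1 and Nfe2l2 (adjusted p = 0.502 to 0.569), and Cp was also lost against a fold change of 1.5 (adjusted p = 0.813). Stat3, the highest of these 8 input genes on average, had 152 and 141 RPKM with TUDCA and 146 RPKM with DMSO.

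Of 7 glucocorticoid target genes none was called, against 2.65% of all genes called in either direction. Their median log2 fold change was -0.33 beside 0.04 for all genes. Per1, a clock gene that glucocorticoids induce, had 8.39 and 9.67 RPKM with TUDCA and 15.6 RPKM with DMSO. Tsc22d3, which encodes the glucocorticoid-induced leucine zipper, had 10.8 and 12.2 RPKM with TUDCA and 16.8 RPKM with DMSO. Dusp1, a phosphatase of MAP kinases, had 76.4 and 80.5 RPKM with TUDCA and 98.9 RPKM with DMSO. None of these 3 passed (limma adjusted p = 0.163, 0.487 and 0.656). Of the 7 genes, 4 had a negative and 3 a positive fold change. The remaining negative one was Sgk1 (log2 fold change -0.46). The positive ones were Tat, Fkbp5 and Zbtb16 (log2 fold change 0.34, 0.18 and 0.16). Sgk1 and the positive ones were named after their values were seen.

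**Figure D4:**
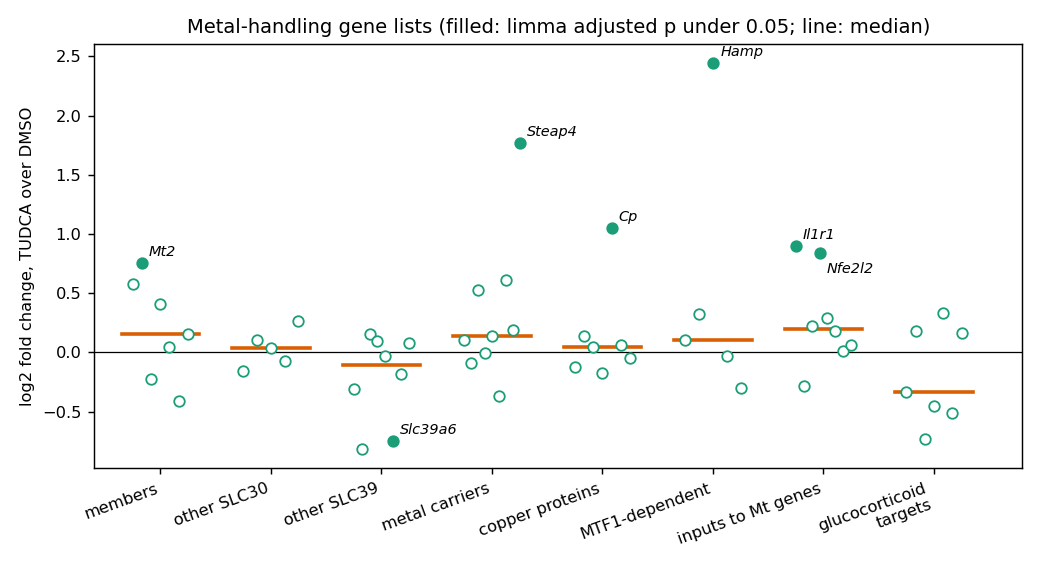
Log2 fold change of TUDCA over DMSO for each gene tested in the members and 7 related lists, with filled points for limma adjusted p under 0.05 and a line at each list's median. Mt2, Steap4, Cp, Hamp, Il1r1 and Nfe2l2 are filled above 0 and Slc39a6 below 0, and the list medians lie between -0.33 and 0.20.

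Mt1 and Mt2 shared no exact stretch of 50 bases in the transcripts of GENCODE M21, so error-free reads of that length or longer could be told apart. The length of 50 bases was chosen for this check, and the reads themselves were not examined. The annotation used for the counting is not stated and may differ from GENCODE M21. Of the 50-base stretches of Mt2, 45.85% lay on the opposite strand of the antisense gene Gm45774, and 7.55% to 8.36% of those of Mtf1, Slc30a1 and Slc30a10 overlapped antisense genes as well. No source used here states whether the counting took the strand into account. If it did not, reads from these shared stretches cannot be assigned to a gene or its antisense partner.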

How the data were processed

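The authors deposited 1 table of RPKM values per library, and HTSeq, Bowtie2, TopHat2 2.0.7 and CASAVA appear in the submitters' processing notes without roles. The sources used here state neither genome build nor annotation. Symbols were matched by identifier to GENCODE M21 (32897 of 37620 genes). Library totals and whole reads, as the smallest numbers that fit, were recovered from the steps of the values for all 19146 genes above 0, within 0.0001 reads.

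TUDCA was compared with DMSO on log2(RPKM + 1) with limma 3.58.1 in R 4.3.3, with a variance trend and Benjamini-Hochberg adjustment over 11300 genes that averaged 1 RPKM or more. Residual variation came from the TUDCA pair alone (1 degree of freedom), and DMSO, with 1 library, was assumed to vary alike. All members are named, and of each other list the called genes, the 2 largest mean differences and the highest level. Members and lists were chosen with earlier results of these data known.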

Additional observations from a re-analysis of the deposited data

How the results depend on the processing

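Results were recomputed with no filter, a filter at 5 RPKM, a pseudocount of 0.1, TPM, quantile normalization, median centring, no variance trend, robust estimation, a test against a fold change of 1.5, voom on recovered reads, a gene length correction and leaving out each TUDCA library. The 299 genes called became 0 with no filter (1696 of 19146 genes with an unadjusted p under 0.05 by limma) and 57 against a fold change of 1.5. With the filter at 1 RPKM voom called 268. The 1 member called became 0 with no filter, median centring, no trend and the test against a fold change of 1.5. It became 2 after the length correction. Members with an unadjusted p under 0.05 by limma were 0 of 8 with no filter. With median centring, no trend and the test against a fold change of 1.5 they were 3, 2 and 0 of 7. Beside these 3 fits, 1158, 1093 and 181 of all 11300 genes had such a p. Of the 49 genes tested in the other lists (metal handling, inputs to metallothionein genes and glucocorticoid targets) 6 were called, against 2.65% of all genes. Since these lists were chosen with earlier results of these data known, the 2 shares are no test of enrichment. The count became 0 with no filter, 3 with no trend and 2 against a fold change of 1.5. It was 4 with quantile normalization, 4 with median centring and 7 with voom. The number of members past the size rule was 0 to 2 when 1 TUDCA library was left out. Slc39a14 turned from 0.043 to -0.032 with median centring, which shifts all genes of a library by the same amount. Mtf1, Slc30a1, Slc39a4 and Slc39a8 kept their sign and stayed uncalled in each refit that tested them. Leaving out a TUDCA library left no test, and Slc30a10 was tested only with no filter, where none of the 8 members was called. No paired analysis was possible because the DMSO label carries no replicate number.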
